A study of Mus musculus with 20 samples.

Results

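Toll-like receptors are innate immune sensors that bind molecules of microbes or of damaged cells, and they pass the signal on through adaptor proteins to the NF-kB and interferon regulatory factors. Tlr1, Tlr2, Tlr4 and Tlr6 act at the cell surface, where Tlr2 pairs with Tlr1 or Tlr6 to sense bacterial lipoproteins and Tlr4 senses lipopolysaccharide with the help of the co-receptor Cd14. Tlr3, Tlr7, Tlr9 and Tlr13 sit in endosomes and sense nucleic acids, and Myd88 is the adaptor of every Toll-like receptor except Tlr3. In adipose tissue these receptors are best known from macrophages, although adipocytes also express some of them.

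Those 8 receptors, Cd14 and Myd88, 10 genes among the 46078 of the count table, were followed through obesity and weight loss in RNA bound to the ribosomes of epididymal adipocytes (TRAP–seq). They were found in the table by gene symbol, and all 10 were in the table and passed the filter on low counts that left 21464 genes for testing. The 20 mice were AdipoERCre x NuTRAP animals (background given as C576BL6), and each library is 1 mouse. Every mouse, control or not, had received tamoxifen before the diets, which switches on Cre in cells with an active adiponectin promoter and so places a GFP tag on the ribosomes of adipocytes. C mice (n = 3) ate chow to an age of 18 weeks, and H mice (n = 3) of that age had eaten a high-fat diet (HFD) for 12 weeks. CC_s (n = 3) were chow controls of 26 weeks, the age of the HC mice (n = 3), which had 12 weeks of HFD and then 8 weeks of chow. In the long arm, CC_l mice (n = 2) ate chow to 31 weeks and HH mice (n = 2) had 25 weeks of HFD. CCC controls (n = 2) were 39 weeks old, as were HHC mice (n = 2), which had 25 weeks of HFD followed by 8 weeks of chow. Per the study's methods, the chow beside the HFD was a low-fat diet. In the last 8 weeks the weight-loss mice and their controls CC_s and CCC all ate another, standard chow. Each HFD or weight-loss group was set against the chow group of its own age, and libraries of the short arm (C, H, CC_s and HC) and the long arm carry different prefixes in their labels, so arm and library set cannot be told apart.

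Library depth ran from 10710277 to 36738954 counts, so 3 counts, the limit taken for detection, stood between 0.0815 and 0.251 CPM (library counts scaled to a common total). RNA of other cell types was present beside that of adipocytes. Adipoq, the adipocyte hormone adiponectin, ranged from 493 CPM in HC replicate 3 to 8800 CPM in HHC replicate 2, and Plin1, which coats the lipid droplet, averaged between 136 CPM in HH and 453 CPM in CC_s. The 12 adipocyte markers summed to 19800 CPM in HC replicate 3 against 83100 and 84700 CPM in the other HC mice, and to 29600 and 35100 CPM in HH against 63700 and 68000 CPM in CC_l. The summed CPM of 14 macrophage markers lay between 286 and 569 in C, 904 and 4760 in H, 313 and 408 in CC_s, 725 and 2270 in HC, 300.0 and 558 in CC_l, 5000 and 6230 in HH, 1100 and 1170 in CCC, and 969 and 2580 in HHC. H replicate 2, HC replicate 3 and HHC replicate 1 were the highest of their groups on that list. CC_l replicate 1 held spermatid RNA (Tnp2 at 754 CPM and Prm1 at 655 CPM), and so, at a lower level, did HC replicate 3 (Tnp2 at 68.3 CPM), while C replicate 1 held 1810 CPM of epididymal epithelium markers. The H mice held 255, 674 and 137 CPM of these epithelium markers and HH replicate 1 held 166 CPM. The remaining mice held at most 84.2 CPM (HC replicate 2). The 4 nuclear-retained RNAs on the list (Malat1 among them) summed to between 20400 and 37600 CPM in C replicates 1 and 2, HC replicate 3 and CCC replicate 2, against at most 12400 CPM elsewhere.

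Sequence shows why the counts of a pair of these receptors have to be read with care. Tlr1 (chromosome 5, 64924679 to 64933563, minus strand, mm10) and Tlr6 (chromosome 5, 64952031 to 64960097, minus strand) are neighbours whose transcripts share stretches of sequence. Of the 50-base words in their transcripts they share 454, which is 13.6% of those of Tlr1 and 12.3% of those of Tlr6, and no other of the 45 pairs of members shares a word. The longest run in common is 229 bases of coding exon, at chr5:64925537-64925765 in Tlr1 and chr5:64953828-64954056 in Tlr6, and a read that lies wholly within it matches both genes, although the mate of a read pair may lie outside it. It is shown because the levels of Tlr1 and Tlr6 below are uncertain to that extent.
Tlr1 and Tlr6: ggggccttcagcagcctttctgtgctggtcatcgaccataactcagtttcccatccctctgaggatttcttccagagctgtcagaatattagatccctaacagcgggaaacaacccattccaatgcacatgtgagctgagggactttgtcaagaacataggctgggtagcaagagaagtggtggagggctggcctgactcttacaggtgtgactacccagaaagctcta

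Promoter sequence was held for 7 of the 10 members in the RefSeq table for mm10. Tlr13, which was upregulated in 3 of 4 comparisons, Tlr1 and Tlr6, which share coding sequence, and Tlr2, called after 25 weeks of HFD, are printed so that their starts can be compared. Each run ends where the most upstream annotated exon of the gene begins, and capitals mark GAGGAA, the core that the myeloid factor PU.1 recognizes, searched on both strands.
Tlr13, chrX:106143025-106143203, plus strand: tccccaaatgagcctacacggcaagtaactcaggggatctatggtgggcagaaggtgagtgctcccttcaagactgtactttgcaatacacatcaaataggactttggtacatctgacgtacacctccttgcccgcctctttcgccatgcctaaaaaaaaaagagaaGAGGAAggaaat
Tlr1, chr5:64933564-64933808, minus strand: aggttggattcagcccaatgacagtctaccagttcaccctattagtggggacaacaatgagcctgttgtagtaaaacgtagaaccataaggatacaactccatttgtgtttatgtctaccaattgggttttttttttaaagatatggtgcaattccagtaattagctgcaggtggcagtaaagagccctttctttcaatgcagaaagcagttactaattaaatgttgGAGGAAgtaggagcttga
Tlr6, chr5:64960098-64960298, minus strand: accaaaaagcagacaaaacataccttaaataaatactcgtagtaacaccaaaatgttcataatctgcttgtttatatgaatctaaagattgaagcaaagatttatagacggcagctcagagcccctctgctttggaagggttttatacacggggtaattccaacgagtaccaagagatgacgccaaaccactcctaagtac
Tlr2, chr3:83841768-83841858, minus strand: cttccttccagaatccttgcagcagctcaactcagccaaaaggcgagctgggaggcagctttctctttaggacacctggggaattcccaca

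In the 250 bases before the RefSeq start, GAGGAA was present in 3 of the 7 members with an entry (Tlr1, Tlr9 and Tlr13). Those 7 members have 9 entries, since Tlr1 and Tlr6 have more than a single entry each. Each of the 3 members held GAGGAA in a single entry, and the other entry of Tlr1 lacked it. Of all 32851 promoter entries, 23.3% hold it, which is a share of entries and not of genes. A NF-kB-type core, GGNNTTTCC, was found in Tlr3 alone and in 4.93% of all entries, and an interferon-response-type core, GAAANNGAA, in Tlr6 and Myd88 and in 7.13% of all entries. The Tlr6 matches lay in its other entry, at chr5:64959167-64959416, and not in the printed run. Only these patterns were searched, so a start without a match, that of Tlr2 among them, may still hold another form of such a site. The printed starts of Tlr1 and Tlr6 differ in that the former holds the PU.1-type core near its end and the latter does not. A match describes the letters and does not show that a factor bound there.

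After 12 weeks of HFD, 2 of the 10 members were upregulated (Tlr13 and Tlr7, nominal p under 0.01 and log2 fold change of at least 1, edgeR), where 3.57% of all tested genes were. In such bulk samples, more cells of a type and more RNA per cell, or fewer and less, cannot be told apart. After the same diet and 8 weeks of chow, the same 2 members were upregulated in HC against CC_s, with a background of 1.57%. After 25 weeks of HFD, 6 of 10 were (Cd14, Tlr2, Tlr13, Tlr3, Tlr7 and Tlr6), with a background of 4.92%. After 25 weeks of HFD and 8 weeks of chow no member was upregulated in HHC against CCC, with a background of 0.447%; at an unadjusted p under 0.05 none was higher and 1 (Cd14) was lower, and DESeq2 called 0. No member was downregulated in any of the 4 comparisons, except that Cd14 in HHC passed as downregulated when no filter on low counts was used (log2 fold change -1.55). With a Benjamini-Hochberg adjusted p under 0.05 over all tested genes instead, the members that were higher numbered 1 in H (Tlr13, background 1.28%), 0 in HC (0.0%), 2 in HH (Cd14 and Tlr2, 1.75%) and 0 in HHC (0.0%). With RLE, a fit to the compared groups alone or the replicate block, Tlr13 in H had an adjusted p of 0.0518, 0.0671 and 0.128 and Tlr2 in HH of 0.0597, 0.0618 and 0.118, and Cd14 in HH had 0.063 with the block. In HC, where no gene of all tested passed by edgeR, 1866 had an unadjusted p under 0.05 and 264 passed by DESeq2, 4 members were higher at an unadjusted p under 0.05 (Tlr13, Tlr7, Tlr6 and Tlr1). The median log2 fold change of the 10 members was 1.2 for H and 2.68 for HH, and 0.90 for HC and 0.16 for HHC. Over all tested genes it was -0.15 for H and -0.23 for HH, and 0.27 for HC and -0.06 for HHC. Another scaling (RLE) shifted the log2 fold changes of the listed genes by a median of -0.11 in H and 0.14 in HHC. In HHC the genes called over the whole table were 96 up and 573 down (14.3% up), or 156 and 421 (27.0% up) with that scaling.

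These counts leaned on the tool and on single mice. By DESeq2 they were 2 in H, 4 in HC (Tlr1 and Tlr6 added) and 8 in HH (Tlr1 and Tlr4 added). Without H replicate 2 the count in H was 1 (Tlr13), and it was 1 as well without C replicate 2 or C replicate 3. In HC it was 1 (Tlr13) without HC replicate 3, CC_s replicate 2 or CC_s replicate 3, and 4 without HC replicate 1. In HH it fell to 0 without CC_l replicate 1, the library with spermatid RNA, which left CC_l with 1 mouse assumed to vary like the other groups, and to 2 (Cd14 and Tlr13) without HH replicate 2. In HHC it was 1 (Myd88) without HHC replicate 2.

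**Figure D1:**
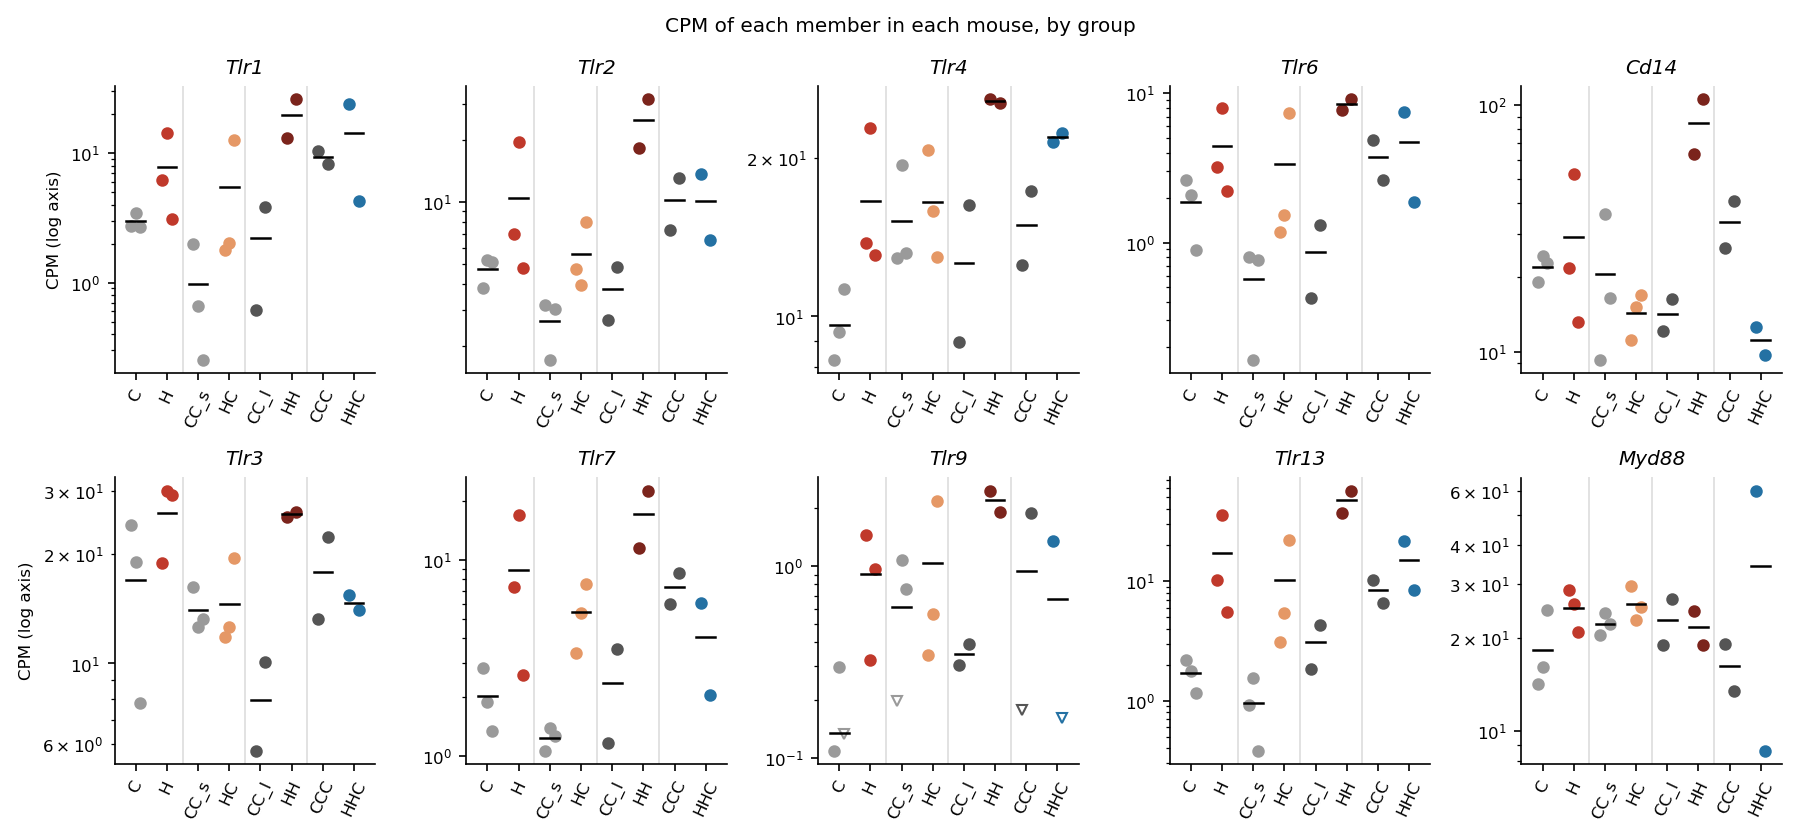
CPM (log axis, scale differs between panels) of each of the 10 members in each mouse of the 8 groups, with chow groups in grey, HFD groups in red, weight-loss groups in orange (HC) and blue (HHC), and the group mean as a black line. Open triangles mark libraries with 0 counts, drawn at the limit of 3 counts. Tlr13 and Cd14 reached 57.1 and 106 CPM in HH replicate 2, and Myd88 60.0 CPM in HHC replicate 1.

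**Figure D2:**
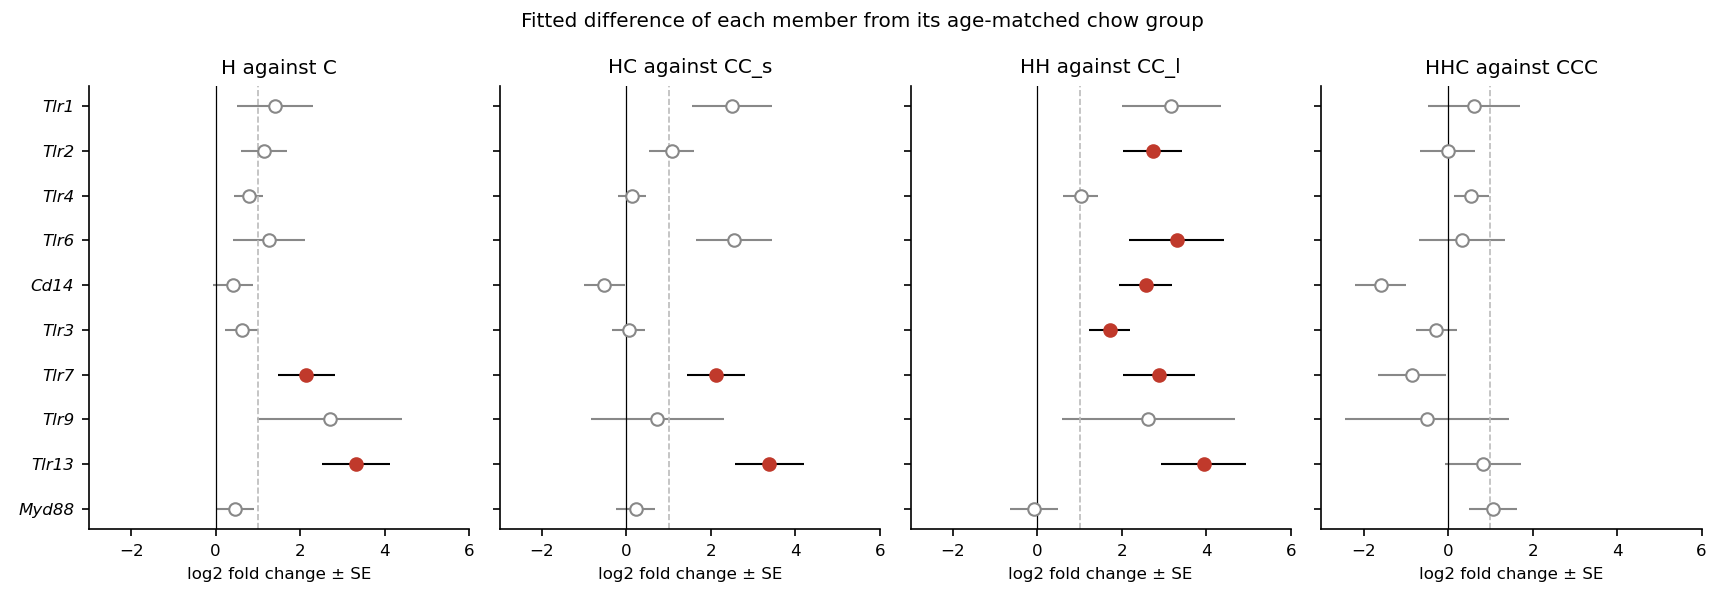
Fitted log2 fold change with its standard error for each member in the 4 comparisons with age-matched chow controls. Filled red points passed the cut-offs (2, 2, 6 and 0 members), and the dashed line stands at a log2 fold change of 1.

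Among the receptors of the cell surface, Tlr2 (chromosome 3, 83836272 to 83841767, minus strand), the shared partner of Tlr1 and Tlr6, was highest in HH. It stood at 3.81, 5.26 and 5.10 CPM in C and at 7.0, 19.5 and 4.80 CPM in H. The H group overlapped the controls, and its replicate 2 was the highest by far. The fitted difference was 1.14 on the log2 scale (SE 0.54, adjusted p = 0.288) and did not pass the cut-offs.
In CC_s, Tlr2 stood at 3.18, 1.72 and 3.04 CPM, and in HC at 4.74, 3.94 and 8.03 CPM. Every HC mouse was above every CC_s mouse, although the log2 fold change of 1.07 (SE 0.54, adjusted p = 0.581) was not called. In the long arm it rose from 2.68 and 4.85 CPM in CC_l to 18.3 and 31.6 CPM in HH, with a log2 fold change of 2.73 (SE 0.69, adjusted p = 0.0496). Without CC_l replicate 1 the difference was 2.37 and no longer passed. HHC, at 13.7 and 6.57 CPM, enclosed the range of CCC, at 7.29 and 13.1 CPM, and the log2 fold change was -0.01 (SE 0.65, adjusted p = 1.0).

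Tlr1, which forms the receptor for triacylated lipoproteins with Tlr2, was called in no comparison by edgeR with all mice after the filter on low counts. DESeq2 and the edgeR fit without that filter called it in HC (2.55 and 2.67) and HH (3.23 and 3.31). It was also called in HC without CC_s replicate 1 or HC replicate 1 (3.53 and 2.91). In C it lay at 2.72, 3.47 and 2.69 CPM and in H at 6.16, 14.2 and 3.07 CPM, a log2 fold change of 1.40 (SE 0.90, adjusted p = 0.447). Its CC_s values were 1.99, 0.655 and 0.254 CPM, and its HC values 1.79, 2.01 and 12.5 CPM. HC replicate 3 alone stood clear of the controls, and the log2 fold change of 2.49 (SE 0.95, adjusted p = 0.541) fell to 0.98 without it. CC_l mice had 0.610 and 3.80 CPM and HH mice 13.0 and 26.1 CPM, which did not overlap (log2 fold change 3.17, SE 1.17, adjusted p = 0.175). With a mouse left out that log2 fold change ran from 2.37 (without CC_l replicate 1) to 5.02 (without CC_l replicate 2). Both ends came from fits with 1 CC_l mouse. In CCC Tlr1 lay at 10.3 and 8.29 CPM and in HHC at 24.1 and 4.25 CPM. The HHC mice stood on either side of their controls, and the log2 fold change of 0.61 (SE 1.08, adjusted p = 0.888) became -1.13 without HHC replicate 1.

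Tlr6, which pairs with Tlr2 for diacylated lipoproteins, followed Tlr1. It measured 2.61, 2.08 and 0.895 CPM in C and 3.23, 7.96 and 2.21 CPM in H (log2 fold change 1.26, SE 0.85, adjusted p = 0.47). The CC_s mice had 0.794, 0.164 and 0.761 CPM and the HC mice 1.17, 1.53 and 7.34 CPM, so the groups did not overlap. That log2 fold change of 2.55 (SE 0.90, adjusted p = 0.536) just missed the cut-off, and without HC replicate 3 it was 1.24. It rose in HH, from 0.427 and 1.31 CPM in CC_l to 7.75 and 9.17 CPM (log2 fold change 3.30, SE 1.12, adjusted p = 0.139). Leaving out any of these 4 mice ended that call. In CCC it stood at 4.90 and 2.63 CPM and in HHC at 7.54 and 1.88 CPM, with a log2 fold change of 0.32 (SE 1.02, adjusted p = 0.966) that was -1.0 without HHC replicate 1.

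Tlr4 (chromosome 4, 66827584 to 66930284, plus strand), the lipopolysaccharide receptor, was called in no comparison by edgeR with all mice, while DESeq2 called it in HH (log2 fold change 1.05). It stood at 8.28, 9.33 and 11.3 CPM in C and at 13.8, 22.8 and 13.1 CPM in H. All H mice were above all C mice, and the log2 fold change was 0.78 (SE 0.34, adjusted p = 0.244). CC_s mice (12.9, 19.4 and 13.2 CPM) and HC mice (20.7, 15.9 and 13.0 CPM) covered nearly the same range, with a log2 fold change of 0.13 (SE 0.33, adjusted p = 0.945). HH mice, at 25.9 and 25.5 CPM, were above CC_l mice, at 8.94 and 16.3 CPM (log2 fold change 1.03, SE 0.41, adjusted p = 0.213). HHC mice, at 21.5 and 22.3 CPM, were also above CCC mice, at 12.5 and 17.3 CPM, by a log2 fold change of 0.55 (SE 0.41, adjusted p = 0.658). Tlr4 was the only member whose HHC values all lay above its CCC values, a pattern shown by 8.49% of all tested genes.

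Cd14, which hands lipopolysaccharide to Tlr4 and serves other surface receptors too, had the largest difference of the 10 members between its effects in obesity and after weight loss in the long arm. The gene is a single exon on chromosome 18 (36725067 to 36726798, minus strand). In C it measured 19.1, 24.4 and 22.8 CPM, and in H 21.9, 52.6 and 13.2 CPM, so the H mice lay below, within and above the controls. Its log2 fold change there was 0.41 (SE 0.48, adjusted p = 0.705) and turned to -0.33 without H replicate 2. CC_s mice spread from 9.27 to 36.1 CPM with 16.5 CPM between, and HC mice had 11.1, 15.1 and 17.0 CPM (log2 fold change -0.52, SE 0.49, adjusted p = 0.783). HH mice had 63.3 and 106 CPM against 12.1 and 16.4 CPM in CC_l. That 5.94-fold rise (log2 fold change 2.57, SE 0.63, adjusted p = 0.0422) held the adjusted threshold with all mice, and without CC_l replicate 1 the log2 fold change was 2.38 and missed the cut-off. After weight loss the order was turned: HHC mice had 12.6 and 9.69 CPM and CCC mice 26.4 and 40.8 CPM. The log2 fold change of -1.60 (SE 0.61, adjusted p = 0.359) did not pass the cut-off. Both HHC mice were below both controls, but the share of all tested genes with that pattern was not taken. Over all tested genes, 573 were called down and 96 up in HHC.

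Of the endosomal receptors, Tlr13 (chromosome X, 106143204 to 106160493, plus strand), a sensor of bacterial ribosomal RNA, was upregulated in 3 of the 4 comparisons. C mice had 2.18, 1.79 and 1.16 CPM and H mice 10.3, 35.8 and 5.47 CPM. The lowest H mouse was above the highest C mouse, and the rise was 10.1-fold (log2 fold change 3.33, SE 0.81, adjusted p = 0.0416). After weight loss HC mice still had 3.09, 5.46 and 22.0 CPM against 0.927, 1.56 and 0.380 CPM in CC_s. That rise was 10.4-fold (log2 fold change 3.38, SE 0.82), with an adjusted p of 0.481 that was 0.00267 by DESeq2 and 2.69e-07 in the edgeR fit without a filter on low counts. Leaving out any mouse of either short-arm comparison kept the call, with log2 fold changes from 2.21 to 3.75 in H and from 2.12 to 3.95 in HC. The lowest values in those ranges came without H replicate 2 and without HC replicate 3.
In HH it reached 37.3 and 57.1 CPM against 1.86 and 4.32 CPM in CC_l (log2 fold change 3.94, SE 1.01, adjusted p = 0.0513), and of the 4 mice only leaving out CC_l replicate 1 ended the call, at a log2 fold change of 3.46. HHC mice had 21.5 and 8.40 CPM and CCC mice 10.3 and 6.59 CPM. These overlapped, and the log2 fold change of 0.83 (SE 0.90, adjusted p = 0.784) was -0.01 without HHC replicate 1. The CCC mice themselves were above every other chow mouse, the highest of which had 4.32 CPM. The same held for Tlr1, Tlr2, Tlr6 and Tlr7, so HHC was compared with raised controls for these receptors. Macrophage markers summed to 1100 and 1170 CPM in CCC and to at most 569 CPM in the other chow mice. The part of this in the HHC comparisons was not tested.

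Tlr7 (chromosome X, 167304929 to 167330558, minus strand), which senses single-stranded RNA, was upregulated in the same 3 comparisons. It stood at 2.83, 1.89 and 1.34 CPM in C and 7.30, 17.0 and 2.59 CPM in H. H replicate 3 lay within the control range, and the log2 fold change was 2.15 (SE 0.67, adjusted p = 0.106). Without H replicate 2 it was 1.29 and missed the cut-off. CC_s mice were tightly grouped at 1.06, 1.39 and 1.27 CPM, and all HC mice, at 3.37, 5.38 and 7.53 CPM, were above them. The log2 fold change was 2.12 (SE 0.68, adjusted p = 0.536), and it stayed between 1.80 and 2.37 when any mouse was left out, although 5 of those 6 fits put p above the cut-off. HH mice had 11.6 and 22.7 CPM against 1.16 and 3.54 CPM in CC_l (log2 fold change 2.88, SE 0.85, adjusted p = 0.0885). HHC mice, at 6.03 and 2.05 CPM, lay lower than CCC mice, at 5.97 and 8.56 CPM, apart from a slight overlap (log2 fold change -0.85, SE 0.80, adjusted p = 0.738).

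Tlr3 (chromosome 8, 45395665 to 45411080, minus strand), which senses double-stranded RNA and signals without Myd88, was called in HH only. It shares 381 exon bases with Gm45542 on the opposite strand, and the strand setting of the counting is not given in the sources used here. C mice had 24.1, 19.0 and 7.79 CPM and H mice 18.9, 30.0 and 29.1 CPM (log2 fold change 0.62, SE 0.39, adjusted p = 0.44). In CC_s it lay at 16.3, 12.6 and 13.3 CPM and in HC at 11.8, 12.6 and 19.5 CPM, a log2 fold change of 0.06 (SE 0.39, adjusted p = 0.985). HH mice agreed closely, at 25.4 and 26.2 CPM, above 5.73 and 10.1 CPM in CC_l (log2 fold change 1.71, SE 0.49, adjusted p = 0.0818). The level in HH was within the range of H, whereas CC_l held the lowest chow mouse of all. Without CC_l replicate 1 the difference was 1.36 and missed the cut-off. HHC mice had 15.4 and 14.0 CPM and CCC mice 13.3 and 22.4 CPM (log2 fold change -0.28, SE 0.48, adjusted p = 0.884).

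Tlr9 (chromosome 9, 106222598 to 106226883, plus strand), the sensor of unmethylated CpG DNA, was close to the detection limit. It had 0 counts in 4 libraries (C replicate 3, CC_s replicate 1, CCC replicate 1 and HHC replicate 2) and at most 3 counts in 5. The highest value was 2.46 CPM in HH replicate 1. H mice had 1.44, 0.326 and 0.960 CPM against 0.109 and 0.298 CPM in the C mice with a count. No comparison was called with all groups in the fit, with log2 fold changes of 2.70 (SE 1.71) in H, 0.73 (SE 1.58) in HC, 2.63 (SE 2.04) in HH and -0.50 (SE 1.95) in HHC. All H mice were above all C mice and both HH mice (2.46 and 1.91 CPM) above both CC_l mice (0.305 and 0.393 CPM), and a fit to HH and CC_l alone called Tlr9 (2.71, adjusted p = 0.0837).

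Myd88 (chromosome 9, 119335934 to 119341411, minus strand), the adaptor shared by all 8 receptors but Tlr3, did not pass the test in any comparison. It shares 290 exon bases with Slc22a14 and Acaa1a. Its level was 14.2, 16.1 and 24.6 CPM in C and 28.7, 25.7 and 20.9 CPM in H (log2 fold change 0.46, SE 0.46, adjusted p = 0.65). CC_s mice had 20.4, 24.1 and 22.2 CPM and HC mice 29.4, 22.9 and 25.3 CPM (log2 fold change 0.22, SE 0.46, adjusted p = 0.927). In CC_l it lay at 19.0 and 26.7 CPM and in HH at 24.5 and 19.0 CPM, a log2 fold change of -0.07 (SE 0.57, adjusted p = 0.968). It was therefore the only member whose HH values were not all above CC_l, where 9 of 10 were, against 26.3% of all tested genes. In the other comparisons the members that did not overlap and were higher numbered 3 in H (Tlr4, Tlr9 and Tlr13, background 13.4%) and 4 in HC (Tlr2, Tlr6, Tlr7 and Tlr13, background 8.01%).
HHC replicate 1 held 60.0 CPM of Myd88, the highest of all 20 mice, and HHC replicate 2 held 8.62 CPM, the lowest. CCC mice had 19.1 and 13.5 CPM. The log2 fold change of 1.07 (SE 0.57, adjusted p = 0.526) was 1.88 and passed the cut-offs without HHC replicate 2, and it was -0.93 without HHC replicate 1. HHC replicate 1 also had the highest summed dendritic cell markers (486 CPM) and T, B and NK cell markers (94.4 CPM) of the series, with Cd3e, a T cell receptor subunit, at 20.4 CPM and Siglech, a plasmacytoid dendritic cell gene, at 12.2 CPM. The part of those cells in its Myd88 level was not tested.

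Whether a member moved less after weight loss than in obesity was tested directly as a difference between effects. Cd14 passed in the long arm: its effect in HH exceeded that in HHC by 4.17 on the log2 scale (SE 0.87, adjusted p = 0.0369), where 0.792% of all tested genes passed in that direction. This call was lost in 7 of the 8 fits that left out a mouse, with the difference itself between 3.77 and 4.51. For the other members in the long arm, Tlr7 differed by 3.73 (SE 1.15, adjusted p = 0.127), Tlr13 by 3.12 (SE 1.30, adjusted p = 0.259), Tlr2 by 2.74 (SE 0.94, adjusted p = 0.166) and Tlr3 by 1.99 (SE 0.69, adjusted p = 0.17). Tlr9 (3.14, SE 2.79), Tlr6 (2.98, SE 1.48), Tlr1 (2.56, SE 1.55) and Tlr4 (0.48, SE 0.58) had adjusted p from 0.345 to 0.735, and Myd88 lay in the other direction (-1.14, SE 0.80, adjusted p = 0.515). In the short arm no member passed. The effects of Tlr13 in H and HC differed by -0.05 (SE 1.00, adjusted p = 1.0) and those of Tlr7 by 0.03 (SE 0.99, adjusted p = 1.0); with standard errors of that size these values do not show that the effects were alike. Over all tested genes none passed the adjusted threshold in the short arm by edgeR after the filter on low counts, while 2538 had an unadjusted p under 0.05, 1403 passed without the filter and DESeq2 passed 444.

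Levels of different genes are comparable only per length of exon. Expressed as CPM per kb of exon, Cd14 was the highest member in C (12.8 ± 1.59 SD, n = 3), H (16.9 ± 11.9, n = 3), CC_s (11.9 ± 8.03, n = 3), HH (48.8 ± 17.3, n = 2) and CCC (19.4 ± 5.89, n = 2), and Myd88 the second in all of these but HH. In H and CC_s both lay within their spread (Myd88 9.74 ± 1.53 and 8.63 ± 0.718), and the highest Cd14 values there came from 1 mouse each (52.6 and 36.1 CPM). In HC, Myd88 (10.0 ± 1.29) and Cd14 (8.31 ± 1.72) did not differ beyond their spread, nor did they in CC_l (8.87 ± 2.09 and 8.21 ± 1.75). Behind them in C came Tlr3 (3.25 ± 1.60) and Tlr4 (1.74 ± 0.279), which overlapped within their spread, and Tlr13 was near the bottom (0.397 CPM per kb). Tlr13 was the sixth in CC_l (0.718 ± 0.404) and the second in HH (11 ± 3.25), within the spread of Myd88 (8.45 ± 1.52) and Tlr2 (8.28 ± 3.11). HHC had Myd88 first (13.3 ± 14.1), on the strength of 1 mouse. Tlr9 was the lowest in every group but CC_s, where Tlr6 (0.154 ± 0.0952) and Tlr9 (0.175 ± 0.158) lay within their spread.

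Over the 20 libraries, the genes nearest in log2 CPM included macrophage markers for Tlr13 and Tlr7 and a pan-leukocyte marker for Tlr1. The measure is Pearson's r, and the libraries share groups, depth and cell make-up, so it is given as a description. Closest to Tlr13 were C3ar1 (r = 0.968) and Adgre1, the macrophage marker F4/80 (r = 0.966). Closest to Tlr7 were Ifi30 (r = 0.949) and Csf1r, the receptor of the macrophage growth factor (r = 0.946), and closest to Tlr1 were Ptprc, the pan-leukocyte antigen CD45 (r = 0.934), and Dock2 (r = 0.929). Tlr2 had Cd53 (r = 0.944) and Ifi30 (r = 0.923), and Tlr6 had Myo1f (r = 0.952) and Nceh1 (r = 0.939).
The remaining members had other neighbours. Those of Tlr3 were Lhfp (r = 0.949) and Tmpo (r = 0.922), those of Tlr4 Cyp4v3 (r = 0.899) and Edem1 (r = 0.894), those of Cd14 Il1r1 (r = 0.869) and Ugt1a7c (r = 0.845), and those of Myd88 Rara (r = 0.845) and Ptpn1 (r = 0.827). For Tlr9 they were Gm38057 (r = 0.851) and Tmem104 (r = 0.832), over values near the detection limit. Among the members themselves, Tlr1 and Tlr6 were closest (r = 0.915, with the shared sequence printed above), followed by Tlr7 and Tlr13 (r = 0.912), and Tlr3 and Myd88 were farthest apart (r = -0.098).

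Macrophage markers were upregulated in the comparisons in which members were. Of the 14 on the list, 9 were upregulated in H, 8 in HC, 13 in HH and 0 in HHC, with median log2 fold changes of 2.09, 1.89, 3.80 and 0.72. Not every member followed them. In HC, Tlr3 changed by 0.06, Tlr4 by 0.13 and Cd14 by -0.52 on the log2 scale. Adgre1 measured 18.3, 10.7 and 8.69 CPM in C, 48.5, 141 and 20.2 CPM in H, 5.96, 7.62 and 5.20 CPM in CC_s and 15.0, 20.8 and 69.5 CPM in HC. Its log2 fold changes were 2.48 in H, 2.48 in HC, 4.49 in HH and 0.60 in HHC. Cd68, a lysosomal protein of macrophages, changed by 3.88, 3.68, 3.90 and 0.90, Csf1r by 1.99, 1.74, 2.89 and -0.81, and Ptprc by 1.49, 1.72, 2.74 and 0.98 in the same order. Defining markers were present in every group, Adgre1 at no less than 5.20 CPM in any mouse, and the part of macrophage RNA in the levels of Tlr13, Tlr7, Tlr2, Tlr1 and Tlr6 was not tested.
Cd14 and Myd88 departed from that list in single mice. HHC replicate 1 had 2580 CPM of macrophage markers but 12.6 CPM of Cd14, while CCC replicate 2 had 1170 CPM of the markers and 40.8 CPM of Cd14. HH replicate 2, with the most macrophage RNA (6230 CPM), had 19.0 CPM of Myd88, less than the 26.7 CPM of CC_l replicate 2 with 558 CPM. Endothelial and adipocyte progenitor markers were both low in HHC (endothelial 86.4 and 117 CPM in HHC against 256 and 531 CPM in CCC, progenitor 615 and 1320 CPM against 1630 and 2680 CPM) and high in HH (1410 and 737 CPM against 145 and 180 CPM, and 5100 and 8010 CPM against 508 and 904 CPM), as Cd14 was. In H the endothelial sums were also high (1200 to 1690 CPM against 265 to 645 CPM in C), where Cd14 overlapped its controls. Their part in its level was not tested.

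**Figure D3:**
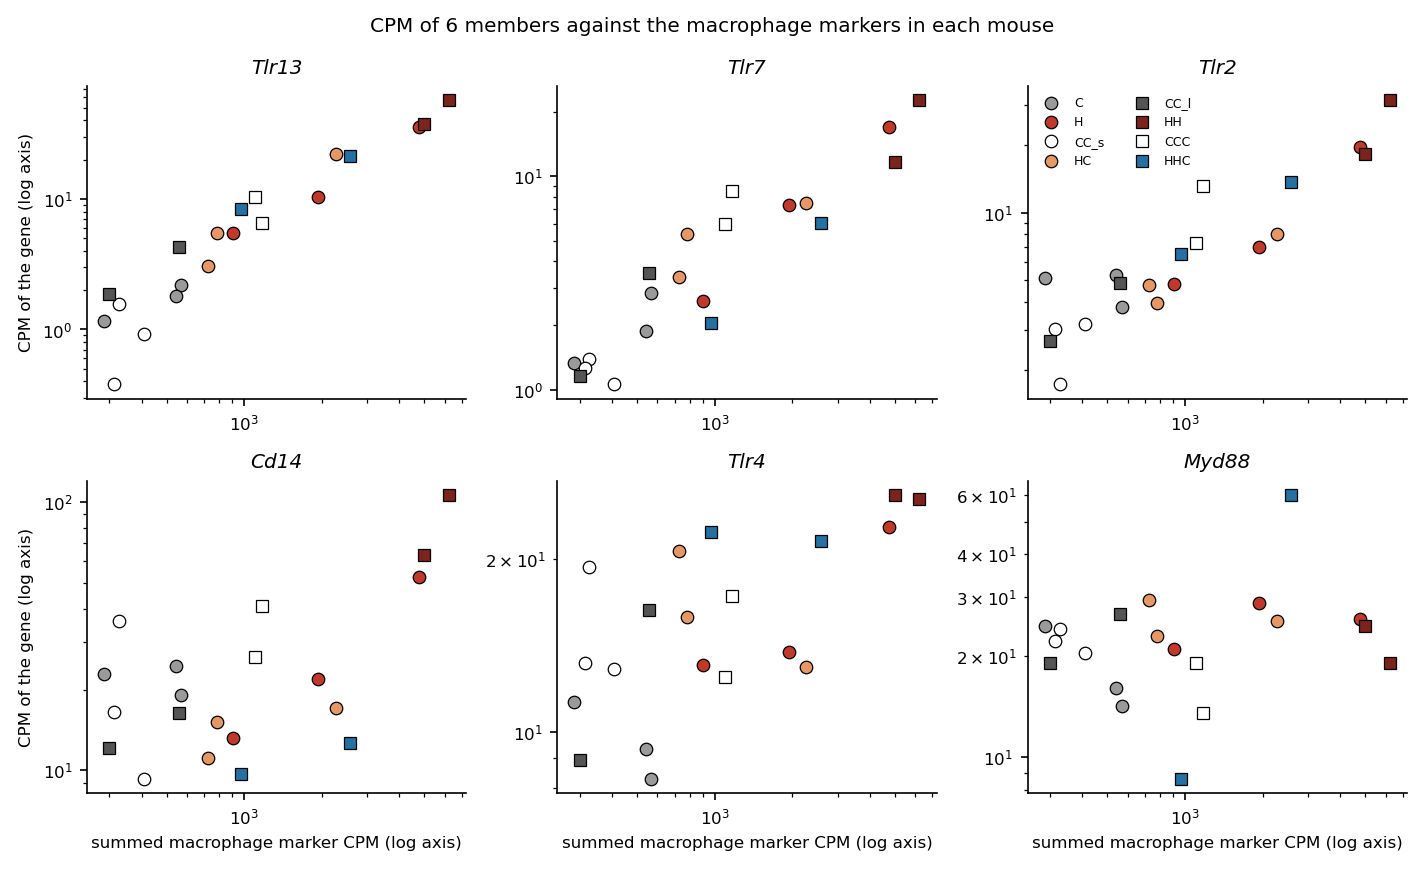
CPM of 6 members (vertical, log axis) against the summed CPM of 14 macrophage markers (horizontal, log axis), each point 1 of the 20 mice, circles for the short arm and squares for the long arm. Tlr13 climbs along the whole marker range from 286 to 6230 CPM, whereas the highest Myd88 value, 60.0 CPM, sits at 2580 CPM of the markers.

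Neutrophil markers were mixed. Ly6g, a surface antigen of neutrophils, had at most 3 counts in every library, and S100a9, Cxcr2 and Retnlg were each at most 0.598 CPM in H. S100a8, a calcium-binding protein abundant in these cells, was the only 1 of the list called as upregulated in H (157, 228 and 52.4 CPM against 0.871, 0.893 and 8.78 CPM in C, log2 fold change 5.36, adjusted p = 0.0333). Of the 4 tested genes of the list, 3 had a log2 fold change above 0 in H, and Mmp9 was called as downregulated. Of the B cell receptor gene Cd79a there were at most 6.70 CPM in any mouse. Of 12 adipocyte markers, 1 passed the cut-offs upwards and 2 downwards in H, none in HC or HHC, and 1 downwards in HH. In HH, the comparison with the most receptor calls, their median log2 fold change was -1.39, against -0.23 over all tested genes. Of the 12, 2 had a log2 fold change above 0 there, against 42.5% of all tested genes. The part of this in the receptor levels was not tested.

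The rest of the pathway was read from 69 further genes in 8 roles, of which 68 were tested. Upregulated were 8 of them after 12 weeks of HFD (H) and 8 after 25 weeks (HH), and after weight loss 3 (HC) and 1 (HHC) were upregulated, with the background shares of 3.57%, 4.92%, 1.57% and 0.447% in that order. None was downregulated, and the median log2 fold change was 0.48 for H, 1.14 for HH, 0.36 for HC and 0.53 for HHC. Of the 4 other receptors, Tlr8, an endosomal RNA sensor related to Tlr7, was upregulated in H (log2 fold change 4.76, adjusted p = 0.00771), HC (3.08, adjusted p = 0.516) and HH (5.03, adjusted p = 0.0247), and it stood at 0.381, 0.298 and 0.358 CPM in C against 6.92, 20.3 and 1.25 CPM in H. Tlr5, the flagellin receptor and the most abundant of the 4, was called nowhere (log2 fold change -0.36 in H and -0.24 in HH).

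Of 5 co-receptors and ligand-transfer genes, 3 were upregulated in H and 3 in HH. Ly96, the MD-2 partner that lets Tlr4 bind lipopolysaccharide, rose by 2.41 in H (adjusted p = 0.018) and 2.01 in HH (adjusted p = 0.0905) on the log2 scale. Lbp, which carries lipopolysaccharide to Cd14, rose by 1.62 in H (adjusted p = 0.0734) and 2.02 in HH (adjusted p = 0.0715). Ly86 rose by 2.15 in H and 4.69 in HH (adjusted p = 0.0761 and 0.0187), and Cd180, the receptor it binds, was the only call of this role in HC (3.57, adjusted p = 0.536). The scavenger receptor Cd36 was the most abundant (3070 CPM over all mice) and passed in no comparison. None of the 5 was called in HHC.
Among 7 genes of receptor folding and transport, Slc15a3, an endolysosomal peptide transporter, was called in H (4.98, adjusted p = 0.0498) and HC (3.56, adjusted p = 0.536). In HH the calls were Tmed7 (1.82, adjusted p = 0.0279) and Unc93b1, which brings the endosomal receptors to their compartment (2.37, adjusted p = 0.116), the latter lost without any 1 of the 4 mice. The chaperone Hsp90b1, the most abundant at 346 CPM, was not called.

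None of the other 4 adaptors was called in any comparison (median log2 fold changes 0.60, 0.21, 1.03 and 0.45 for H, HC, HH and HHC), Tirap being the most abundant at 19.0 CPM. None of 14 kinases and ubiquitin ligases was called (medians -0.38, -0.07, -0.04 and 0.03 in that order), led in abundance by Tab2 at 127 CPM. Of 9 transcription factors the only call was Irf7, an interferon regulator, in HHC (1.96, adjusted p = 0.285), where replicate 1 held 82.1 CPM and replicate 2 held 15.2 CPM against 14.8 and 10.2 CPM in CCC. Their medians were 0.58, 0.38, 0.57 and 0.76. In both HH mice 6 of the 9 were higher than in both CC_l mice, where 26.3% of all tested genes were, and 2 were lower. The NF-kB subunit Rela averaged 59.9 CPM and was called nowhere.
Of 11 inhibitors, Tnip3 was called in H (2.79, adjusted p = 0.091) and HH (5.64, adjusted p = 0.0253) and Nfkbie in H (2.27, adjusted p = 0.102), while Nfkbia, the most abundant at 199 CPM, was not called. Of 14 tested cytokines and enzymes that the pathway induces, Ccl2, a chemokine that attracts monocytes, was upregulated in H (3.36, adjusted p = 0.03) and HH (3.57, adjusted p = 0.0584), and not in HC (0.79, adjusted p = 0.775). It measured 50.6, 93.9 and 21.4 CPM in H and 63.2 and 61.8 CPM in HH against 7.52, 4.91 and 3.76 CPM in C and 0.976 and 9.69 CPM in CC_l. The medians of the role were 1.86, 1.03, 1.68 and 1.76, and 9 of the 14 did not overlap and were higher in HH, where 26.3% of all tested genes were. In HHC, 13 of the 14 had a log2 fold change above 0, but 0 did not overlap and were higher (background 8.49%). Replicate 1 of HHC held 14.6 CPM of Tnf and 63.3 CPM of Cxcl10, and replicate 2 held 0.108 and 3.12 CPM. Acod1 had 0 CPM in both CCC mice and in HHC replicate 2. Ptgs2 had the highest mean of the role (30.5 CPM), owing to 504 CPM in C replicate 1 against at most 48.5 CPM elsewhere, and was called nowhere. Ifnb1 had 0 counts in all 20 libraries and was not tested.

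**Figure D4:**
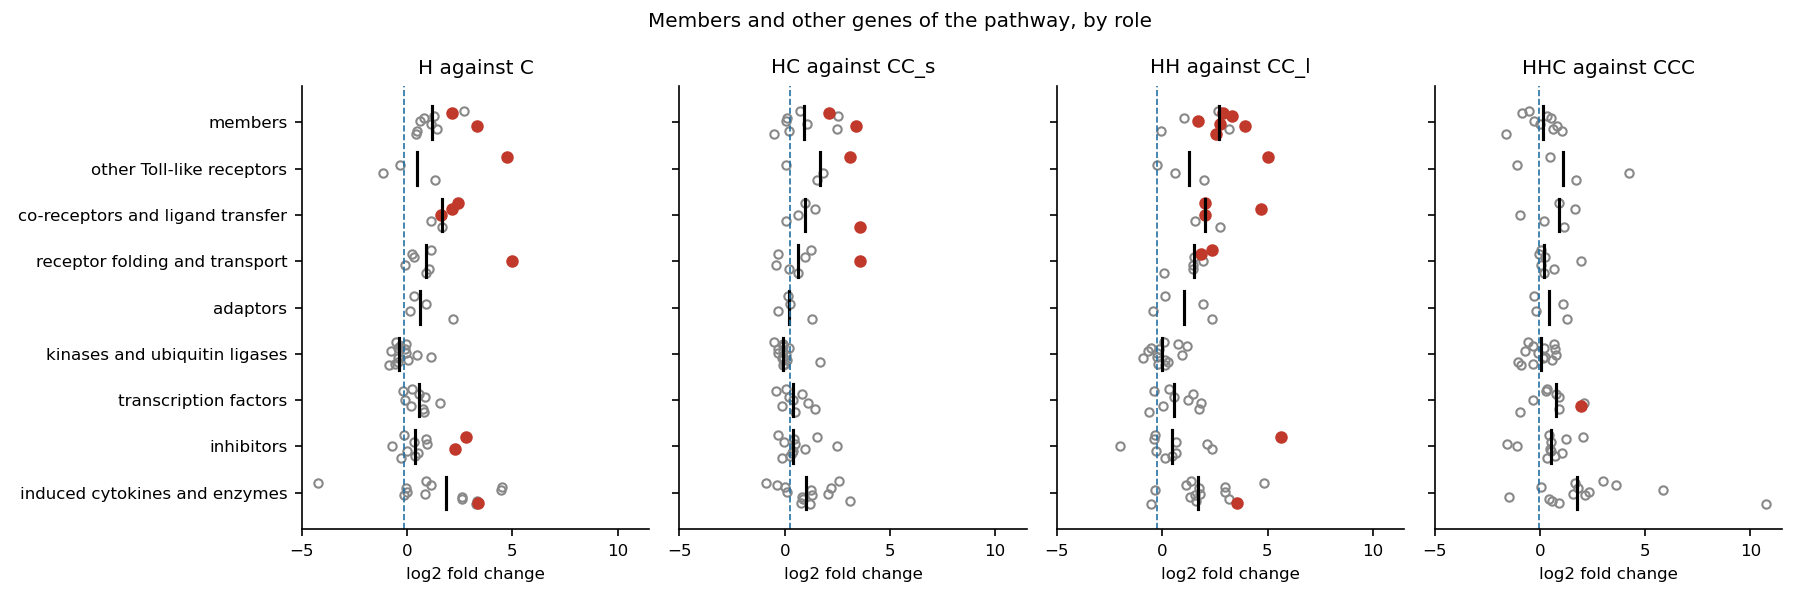
Log2 fold change of the 10 members and of 68 other pathway genes by role in the 4 comparisons, with called genes filled red, the median of each role as a black bar and the median of all 21464 tested genes as a dashed blue line. Called genes are 8, 3, 8 and 1 among the other pathway genes, with none among the kinases and ubiquitin ligases.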

How the data were processed

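TRAP–seq of 20 mice was analysed. Per the labels and the study's methods, the authors checked reads with FastQC 0.11.9, trimmed them with Trim Galore 0.6.6, aligned them to mm10 with HISAT2 2.2.1 and deposited raw gene counts from featureCounts of Subread 2.0.1. Between 74.4% and 89.2% of the nonzero counts of a library were even, so halved counts were tried as an alternative. The strand setting and annotation of the counting are not given in the sources used here.

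From these counts, edgeR 4.0.16 in R 4.3.3 kept 21464 genes (filterByExpr), normalized by TMM and fitted a quasi-likelihood model to all 20 libraries in 8 groups (biological coefficient of variation 0.680). CPM are TMM-scaled. Called genes had p under 0.01 and a log2 fold change of at least 1, the study's cut-offs, with Benjamini-Hochberg adjusted p given beside them. Standard errors were derived from the fold change and its F statistic. Differences between effects were interactions, called at an adjusted p under 0.05. The fit was tested on simulated data. Positions and symbols came from GENCODE vM21, promoters from RefSeq, and figures from matplotlib 3.10.9.

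The members and lists were chosen with earlier results of these data known. Named were all members, in each pathway role the most abundant gene and up to 3 called genes per comparison, set marker genes, and for each member the 2 genes with the highest r. Alternatives were RLE in place of TMM, DESeq2 1.42.0, a fit of every gene with a count, only the compared groups, the replicate number as a block, an adjusted threshold, halved counts and each mouse left out. A fold change against a lone library in a leave-out assumes that it varies like the others. Each replicate is a separate mouse.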

Additional observations from a re-analysis of the deposited data

Results flagged for a closer look

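The effect of 25 weeks of HFD on Cd14 exceeded its effect after weight loss by 4.17 on the log2 scale (edgeR interaction, adjusted p = 0.0369), the only member whose effects in the 2 phases differed in this test. HH mice had 63.3 and 106 CPM, CC_l mice 12.1 and 16.4 CPM, HHC mice 12.6 and 9.69 CPM, and CCC mice 26.4 and 40.8 CPM. Both HH mice were thus above their controls, as in 26.3% of all tested genes. Both HHC mice were below theirs, a pattern whose share of all tested genes was not taken. The mice of the 2 phases also differed in age and in the chow that their controls ate. Macrophage, endothelial and progenitor markers moved as given in the report. The part of any of these in the difference was not tested. Groups of 2 or 3 mice are too small for a search for single outlying mice.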

How the results depend on the processing

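Of 469 recomputed fold changes and differences of single members, 393 kept their direction and their side of the threshold, 34 lost a call, 15 gained it and 27 turned sign. Counts of called members moved to 1 in H with only the compared groups or with the adjusted threshold (Tlr13), to 4 in HC with no filter or DESeq2, to 0 in HC and 2 in HH with the adjusted threshold. With a mouse left out they ran from 1 to 2 in H, 1 to 4 in HC, 0 to 6 in HH and 0 to 1 in HHC. Members whose effects differed in the long arm were 0 with RLE, 2 with no filter (Cd14 and Tlr13) or DESeq2 (Cd14 and Tlr7), and 0 to 1 with a mouse left out; in the short arm they were 0 in every setting run. The cause was not tested.

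Correlations of same-numbered deviations from the group means ran from -0.277 to 0.192. Deviations within such small groups are bound to each other, so these values do not decide whether the replicate numbers pair the mice. With the replicate block, called members were 1 in H and 5 in HH, and no member's effects differed in the long arm (0, Cd14 with an adjusted p of 0.0645); the block moved no other count of called members.

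Over all genes, 337 were called up in HC against 699 by DESeq2, 1702 with no filter, 196 with only the compared groups and 175 with the block, and 96 in HHC against 355, 380, 62 and 53, and 153 with halved counts. At the adjusted threshold 455 passed in H against 2071, 1677, 243 and 175 in the first 4 of these settings, 445 in HH against 1952 by DESeq2, 2107 with no filter and 38 with the block, and 0 in HC and HHC against 264 and 452 by DESeq2 and 1077 and 396 with no filter. Differences between effects passed in 175 genes in the long arm against 1193 by DESeq2, 1266 with no filter, 109 with halved counts, 21 with RLE and 1 with the block, and in 0 in the short arm against 444 by DESeq2 and 1403 with no filter.

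Fold changes that turned sign under another setting were those of Tlr2 in HHC at 0.13 (RLE and DESeq2), 0.05 (no filter), 0.16 (compared groups only), 0.11 (block) and 0.17 (halved counts), Tlr3 in HC at -0.01 (halved counts) and Myd88 in HH at 0.03 (no filter) and 0.01 (compared groups only). Values with a mouse left out that turned sign ran, in HHC, from -1.13 to 1.38 for Tlr1, -0.64 to 0.47 for Tlr2, -0.61 to 0.14 for Tlr3, -1.0 to 1.0 for Tlr6, -7.37 to 6.85 for Tlr9 (a lone library at 0 counts sets both ends, which are no bounds), -0.01 to 1.35 for Tlr13 and -0.93 to 1.88 for Myd88. In HC they ran from -0.21 to 0.19 for Tlr3, -0.07 to 0.34 for Tlr4, -0.44 to 1.41 for Tlr9 and -0.87 to 0.16 for Cd14, in H from -0.33 to 0.75 for Cd14, and in HH from -0.28 to 0.22 for Myd88. Depth limits Tlr9 most, with 0 counts in 4 libraries.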
